A study of Mus musculus with 11 samples.

Results

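The 6 genes described here, Dio2, Dio3, Thra, Thrb, Klf9 and Hr, make, break, read or answer to thyroid hormone, and they are 6 of the 48709 mouse genes in the count table. They were selected on their role in the pathway with the fold changes of this same comparison in view. Their levels, fold changes and adjusted p-values in it are therefore given as a description, and the number of members past the threshold is no independent result. RNA was sequenced in bulk from the aortic arch of mice at postnatal day 11. The Het group (Het 1 to 6) held 6 mice that carry one Tgfbr2 allele with the G357W substitution, written Tgfbr2-G357W/+. The WT group (WT 1 to 5) held 5 littermates written Tgfbr2-+/+. Tgfbr2 encodes the type II receptor of TGF-β, and mutations of the human gene cause Loeys-Dietz syndrome, an inherited disease of the aorta. In the labels the cell type is given as VSMC and EC (vascular smooth muscle cells and endothelial cells), and no treatment is listed.

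Most circulating thyroid hormone is thyroxine, a precursor that binds the nuclear receptors weakly. Type 2 deiodinase removes an outer-ring iodine and yields triiodothyronine, the active hormone, while type 3 deiodinase removes an inner-ring iodine and inactivates both forms. Triiodothyronine acts through the receptors encoded by Thra and Thrb, which pair with retinoid X receptors on DNA and hold corepressors until hormone binds; Klf9 and Hr are among the genes it switches on in rodent brain. In human vascular smooth muscle cells type 2 deiodinase activity has been measured, and in brown fat Dio2 is induced by adrenergic signals through cyclic AMP.

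Both deiodinases need selenocysteine in the active site, which is encoded by a TGA codon that would otherwise end translation. The coding stretch around that codon is shown because the enzymes act through that residue. Capitals mark the selenocysteine codon, which is codon 130 of 266 in Dio2 and codon 170 of 304 in Dio3. The Dio2 stretch lies at chr12:90729796-90729852 on the minus strand and the Dio3 stretch at chr12:110279712-110279768 on the plus strand (GRCm38, GENCODE M21).
Dio2: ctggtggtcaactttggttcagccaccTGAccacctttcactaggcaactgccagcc
Dio3: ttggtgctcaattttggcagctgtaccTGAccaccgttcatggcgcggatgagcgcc
Of these 57 bases 36 were identical between the genes, or 63.2%. The annotation marks another selenocysteine codon in Dio2, codon 263, near the end of the protein.

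The 250 bases upstream of the Dio2 start site in RefSeq (GRCm38.p6, chr12:90739039-90739288, minus strand) are shown because Dio2 is the member whose level differed most between the groups. Capitals mark the cyclic AMP response element TGACGTCA, which was found once on searching both strands.
Dio2 upstream: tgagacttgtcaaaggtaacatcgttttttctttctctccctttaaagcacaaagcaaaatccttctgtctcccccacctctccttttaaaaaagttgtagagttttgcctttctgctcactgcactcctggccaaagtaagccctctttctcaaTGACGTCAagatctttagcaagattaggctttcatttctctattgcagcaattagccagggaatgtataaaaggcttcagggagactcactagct
The element begins at position -95, counted from the RefSeq start site, and the same letters occur in 1.55% of the 32851 windows of this length in the RefSeq promoter table. A TATAAA sequence begins at -30, and 12.4% of the windows hold one. The Dio2 window was 41.6% G or C, against a median of 52.4% over all windows. The RefSeq start site lies 600 bases upstream of the start of the Dio2 gene in GENCODE M21, and these libraries do not show which start is used. The table held windows for 4 of the 6 members, Dio2, Dio3, Thrb and Klf9. No TGACGTCA was in the windows of Dio3, Thrb or Klf9. AGGTCA, the half-site that thyroid hormone receptors recognise, was in 14.0% of all windows and, among these members, once in the first of the Thrb windows, at -184. A direct repeat of AGGTCA with 4 bases between the copies was in none of the members' windows and in 0.0152% of all windows. These matches describe letters in a window and say nothing about binding in the aorta.

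Libraries held 13162456 to 18883716 counts in Het and 13113476 to 19327942 counts in WT, so that 3 counts equal 0.163 to 0.231 CPM in Het and 0.154 to 0.224 CPM in WT. CPM, the unit of every level given here, is the count per 1e6 counts of a library, scaled by TMM factors between 0.979 and 1.031. Smooth muscle markers were abundant in every library, with 7 markers summing to 30456 to 41475 CPM in Het and 33587 to 38102 CPM in WT. The 7 endothelial markers summed to 328 to 528 CPM in Het and 352 to 482 CPM in WT. Tgfbr2 itself had 30.9 to 51.4 CPM in Het and 38.3 to 48.8 CPM in WT, and counts per gene do not show the substitution. The labels do not give sex, and the groups differed in sex-linked genes. Xist had 75.0 and 77.3 CPM in Het 1 and Het 2 and at most 0.735 CPM in Het 3 to Het 6, against 58.4 to 78.6 CPM in all 5 WT libraries. Ddx3y, on the Y chromosome, had 86.4 to 110.5 CPM in Het 3 to Het 6, and 0 counts in Het 1, Het 2 and every WT library. Sex-linked expression and genotype are thus tied in part, and values with a sex score as a covariate stand beside the calls it ends and the directions it turns.

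**Figure D1:**
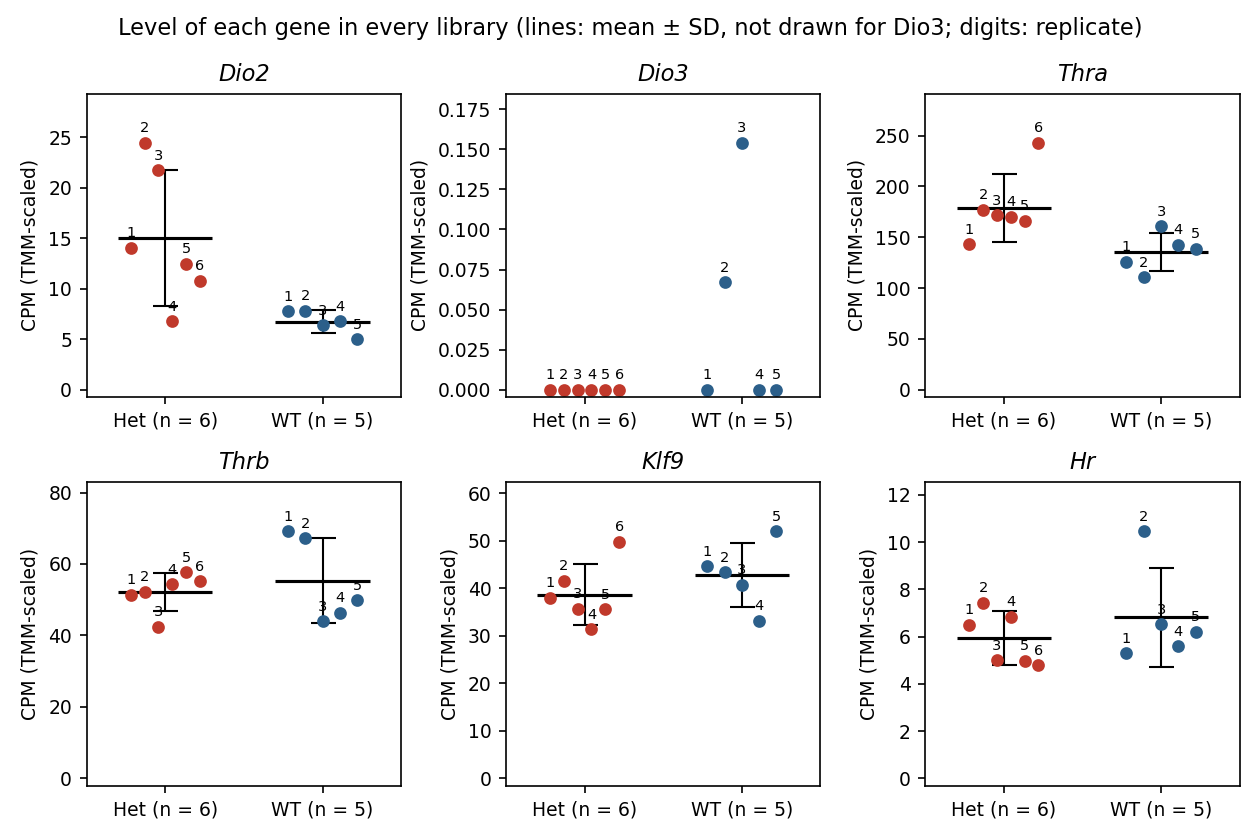
TMM-scaled CPM of the 6 genes in each library, with Het (n = 6) left of WT (n = 5) in every panel; horizontal lines are group means and bars the SD, which are not drawn for Dio3, and digits are replicate numbers. For Dio2, 5 of 6 Het points lie above all WT points, for Thra likewise 5 of 6, and for Thrb, Klf9 and Hr the groups overlap.

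Dio2 (ENSMUSG00000007682, chr12:90724552-90738438, minus strand), which encodes the activating type 2 deiodinase, was about 2.23 times as high on average in Het as in WT. Its level was 14.0, 24.4, 21.8, 6.77, 12.5 and 10.8 CPM in Het 1 to Het 6, against 7.75, 7.84, 6.37, 6.76 and 5.01 CPM in WT 1 to WT 5. Het 2 and Het 3 were the highest libraries, Het 4 lay inside the WT range, and the other 5 Het libraries were above every WT library. The means were 15.04 ± 6.74 CPM in Het (SD, n = 6) and 6.74 ± 1.16 CPM in WT (SD, n = 5), from 67 to 339 counts per library. In edgeR's quasi-likelihood fit across 14757 genes the log2 fold change of Het over WT was 1.15 ± 0.28 (SE), with a Benjamini-Hochberg adjusted p of 0.0245. That places Dio2 at rank 471 by p among all tested genes. In the same fit 5.03% of tested genes passed the adjusted threshold of 0.05, 2.65% as higher in Het and 2.38% as lower in Het. An unadjusted p under 0.05 was more common over all genes. Thra, at an unadjusted p of 0.00612 (edgeR), already ranked 1086, and Rcan2, at 0.0506, had an adjusted p of 0.259. The exact share of all tested genes with an unadjusted p under 0.05 is not given here. Counts of unadjusted p per list, given below, are therefore not read as an excess. Over the same 14757 genes DESeq2 called 1295 and limma voom 778 at the adjusted threshold, to be set beside their counts per list. Of the 6 members 5 passed the filter on low counts and were tested, and Dio2 was the 1 that passed the threshold. p-values measure the spread between these 11 mice, and in bulk samples fewer cells of a type and less RNA per cell cannot be told apart.

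Of the 27 alternatives run, 6 ended the Dio2 call. In edgeR its adjusted p was 0.0524 without Het 2, 0.0605 without WT 3 and 0.0513 with the replicate number as a block. With limma voom it was 0.0611. It was also above 0.05 with the column-name number as a covariate and without WT 1 and WT 2 together. Over the 27 alternatives the adjusted p of Dio2 lay between 0.00110 and 0.0728. Its log2 fold change stayed positive in all 27, between 0.96 and 1.54. With a sex score as a covariate the log2 fold change was 1.54 (adjusted p = 0.0401, edgeR). In the Xist-positive libraries alone, 2 Het and 5 WT, it was 1.52 (adjusted p = 0.0472, edgeR).

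**Figure D2:**
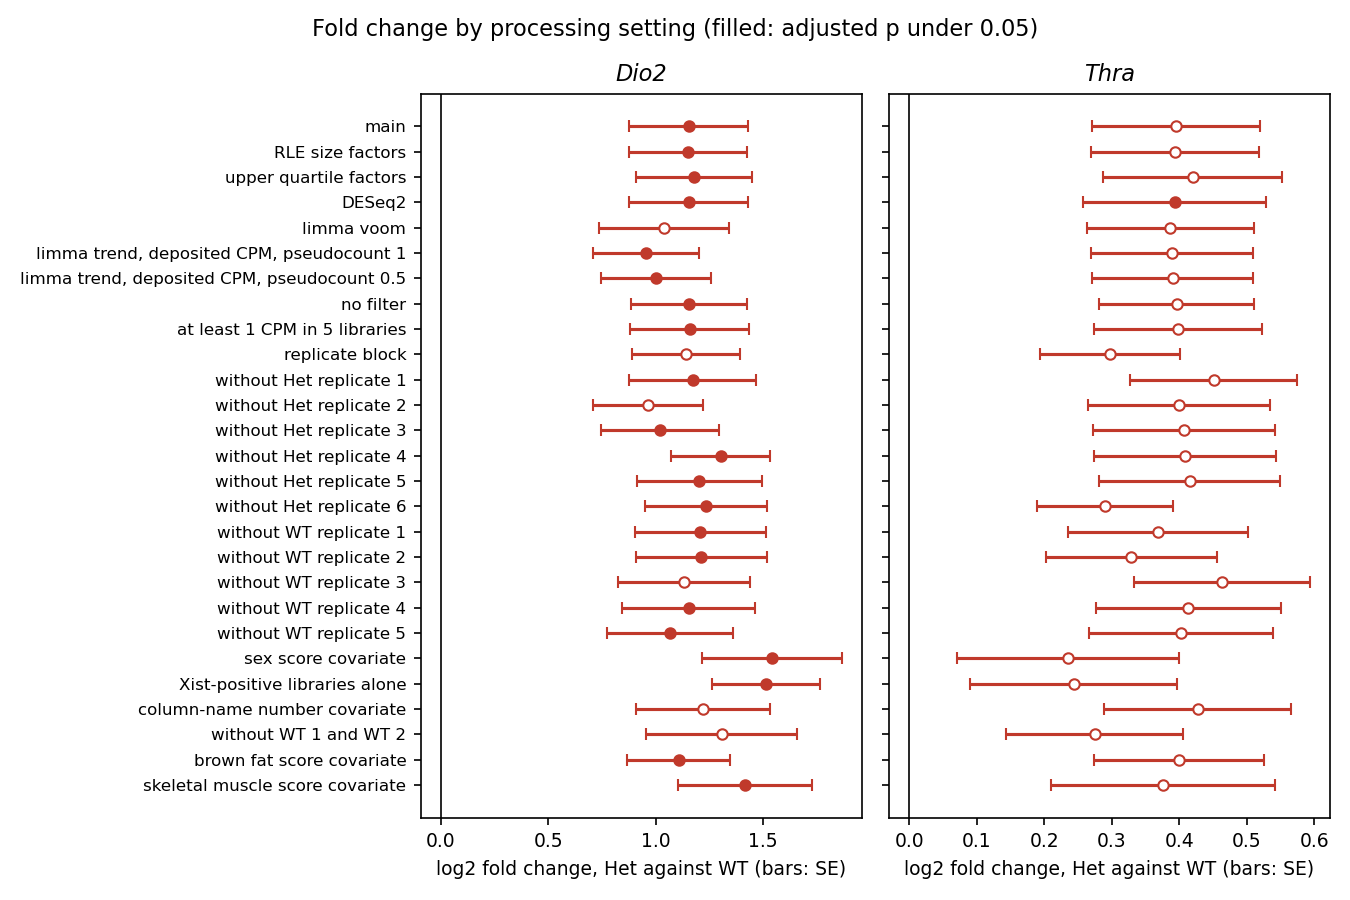
Log2 fold change of Het over WT for Dio2 (left) and Thra (right) under each way of processing the data; bars are the SE and filled points have an adjusted p under 0.05. Dio2 stays between 0.96 and 1.54 and passes the threshold in most settings, while Thra stays between 0.24 and 0.46 and passes with DESeq2.

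The Het libraries differed more among themselves in Dio2 than the WT libraries did. The highest Het library had 3.61 times the level of the lowest, against 1.56 times in WT, and the coefficient of variation was 44.8% in Het and 17.2% in WT. Among 2154 tested genes with a mean level within 0.5 log2 of that of Dio2, 98.7% had a lower coefficient of variation in Het, where their median was 17.8%. In WT, 37.9% of them had a lower one, with a median of 19.9%. This spread is not independent of the choice of members, which was made with the fold changes in view. The highest Het libraries raise both the Het mean of Dio2, and so its fold change, and its SD in Het. The spread is therefore given as a description, without a test.

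Dio2 is also a marker of brown fat, and brown fat was present in the dissected tissue in amounts that varied between libraries. Ucp1, the uncoupling protein of brown fat, had 147 to 1283 CPM in Het and 414 to 1437 CPM in WT, with a log2 fold change of 0.01 ± 0.60 (adjusted p = 0.997, edgeR). Of the 6 brown fat markers other than Dio2 (Ucp1, Cidea, Elovl3, Cox8b, Ppargc1a and Cox7a1) 0 passed the threshold in edgeR, DESeq2 or limma voom, and 0 had an unadjusted p under 0.05 in edgeR. Their summed level was 1390, 2126, 1843, 382, 317 and 1054 CPM in Het 1 to Het 6, against 915, 973, 796, 878 and 2829 CPM in WT 1 to WT 5. Het 2 and Het 3 had the highest sums among Het and the highest Dio2, whereas WT 5 had the highest sum of all 11 libraries and the lowest Dio2. Het 4, with a sum of 382 CPM, had the lowest Dio2 among Het, at 6.77 CPM. Het 5 had the lowest sum of all and a Dio2 level of 12.5 CPM, above every WT library. With the brown fat score as a covariate the Dio2 log2 fold change was 1.11 ± 0.24 (adjusted p = 0.0143, edgeR), against 1.15 ± 0.28 without it. Whether brown fat content has a part in the Dio2 difference was not tested.

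**Figure D3:**
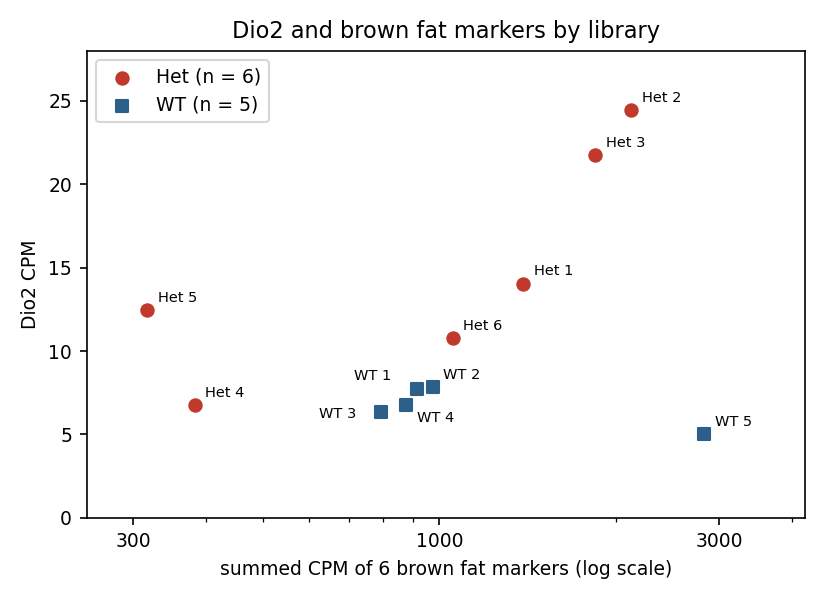
Dio2 level (CPM, linear axis) against the summed level of 6 other brown fat markers (CPM, log axis) in each library; circles are Het (n = 6) and squares WT (n = 5). Het 1, Het 2 and Het 3 have high values on both axes, Het 5 has the lowest marker sum and 12.5 CPM of Dio2, and WT 5 has the highest marker sum and the lowest Dio2.

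Marker lists of some other tissues and cells also differed between the groups. The summed level of 10 skeletal muscle markers was 6.88 to 14.5 CPM in Het and 16.3 to 37.9 CPM in WT, with no overlap. Most of it was Tnnt3, a fast troponin, at 5.74 to 12.7 CPM in Het and 14.3 to 37.3 CPM in WT, while Myod1 was at 0 counts throughout. Acta1, the other tested marker of this list, went the other way, with means of 1.22 CPM in Het and 0.823 CPM in WT. Ckm, Myh2 and Myh3 were also lower on average in Het, while Actn3, Myh1, Myh4 and Myh8, at low levels, were higher. The 6 keratinocyte and epithelium markers summed to 2.81 to 12.0 CPM in Het and 13.6 to 17.1 CPM in WT. Most of that was Krt15, with means of 5.44 CPM in Het and 12.7 CPM in WT. Krt14 and Trp63 were also lower on average in Het, while Krt5, Epcam and Cdh1, at low levels, were higher. The 6 cartilage markers summed to 2.00 to 6.39 CPM in Het and 5.98 to 9.58 CPM in WT, with Matn1 at 0 counts throughout. Most of that was Sox9, with means of 2.94 CPM in Het and 6.56 CPM in WT. Col9a1 was also lower on average in Het, while Col2a1, Cnmd and Comp, at low levels, were higher. With a skeletal muscle score as a covariate the Dio2 log2 fold change was 1.42 ± 0.31 (adjusted p = 0.0372, edgeR). Because the summed muscle markers, mostly Tnnt3, did not overlap between the groups, this fit cannot cleanly separate their level from genotype. For thyroid tissue, the 8 follicle markers summed to 0.742 to 4.26 CPM in Het and 1.76 to 3.84 CPM in WT, and Pax8, Nkx2-1 and Foxe1 were at 0 counts in every library. The 6 red cell markers summed to 379 to 909 CPM in Het and 670 to 1570 CPM in WT. All 6 had a negative log2 fold change, with a median of -0.73, and 4 had an unadjusted p under 0.05 while 0 passed the threshold in edgeR, DESeq2 or limma voom. The 7 heart muscle markers summed to 20.2 to 29.1 CPM in Het and 26.2 to 36.0 CPM in WT, with a median log2 fold change of -0.43 over the 5 tested, all negative. The 6 macrophage markers summed to 35.5 to 86.0 CPM in Het and 24.0 to 68.9 CPM in WT, with a median of 0.51 and 5 of 6 positive. Of the heart and the macrophage markers 2 each had an unadjusted p under 0.05 and 0 passed the threshold in edgeR, DESeq2 or limma voom. The part of skeletal muscle, epithelium, cartilage, red cells, heart muscle and macrophages in these results was not tested.

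On the other strand of Dio2 lies Gm26512, which shares 100 exonic bases with it, and these unstranded libraries cannot separate reads there. Gm26512 reached at most 0.432 CPM, far under the level of Dio2.

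Dio3 (ENSMUSG00000075707, chr12:110279068-110281097, plus strand), the inactivating deiodinase, was at the limit of detection. It had 0 counts in all 6 Het libraries, 1 count in WT 2, 3 counts in WT 3 and 0 counts in WT 1, WT 4 and WT 5. It is not in the deposited normalized table, did not pass the filter, and was not tested. A count of 0 allows up to 0.231 CPM in the shallowest Het library, a bound for counting error only, so a difference between the groups was not detectable at this depth.

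Dio3 sits in an imprinted domain together with Dlk1 and Meg3, and its neighbours were expressed. Of 6 genes of the domain in the files 4 were tested and 0 passed the threshold in edgeR, against 1 in DESeq2 and 0 in limma voom, and 1 had an unadjusted p under 0.05. These 4 had a median log2 fold change of 0.13, against -0.0046 over all tested genes. Rian, a long noncoding RNA, had 97.0 ± 20.1 CPM in Het (SD, n = 6) and 92.1 ± 25.3 CPM in WT (SD, n = 5). Meg3, another, had 67.3 ± 3.71 CPM in Het and 54.5 ± 7.92 CPM in WT (log2 fold change 0.30 ± 0.09, adjusted p = 0.0785, edgeR). Apart from WT 1, at 68.5 CPM, every WT library was below every Het library in Meg3.

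Thra (ENSMUSG00000058756, chr11:98740638-98769006, plus strand) encodes the receptor α1 and, by splicing, an α2 form that does not bind hormone. Its level was 143, 177, 172, 170, 166 and 243 CPM in Het 1 to Het 6, against 126, 111, 161, 143 and 139 CPM in WT 1 to WT 5. Het 6 stood well above the rest, Het 1 lay inside the WT range, and the other 5 Het libraries were above all WT libraries. The means were 179 ± 33.6 CPM in Het (SD, n = 6) and 136 ± 18.8 CPM in WT (SD, n = 5). The log2 fold change was 0.40 ± 0.12, with an adjusted p of 0.0830 in edgeR, which does not pass the threshold. DESeq2 gave an adjusted p of 0.0435 for it. With the sex score as a covariate the log2 fold change was 0.24 (adjusted p = 0.668, edgeR), and in the Xist-positive libraries alone it was 0.24 (adjusted p = 0.688, edgeR). Over the 27 alternatives the adjusted p lay between 0.0435 and 0.688.

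The annotation gives 9 transcripts for Thra, and counts per gene do not separate the α1 and α2 forms. Nr1d1, which encodes the heme-binding clock repressor REV-ERBα, overlaps the end of Thra on the other strand over 1075 bases, 263 of them exonic. Reads there cannot be told apart in unstranded libraries. Nr1d1 had 15.5 to 35.9 CPM in Het and 19.8 to 27.2 CPM in WT, a log2 fold change of 0.22 ± 0.17 (adjusted p = 0.533, edgeR).

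Thrb (ENSMUSG00000021779, chr14:17660261-18038090, plus strand), the β receptor gene, had 42.5 CPM in the lowest, 53.3 CPM in the median and 57.7 CPM in the highest Het library, against 69.1, 67.2, 44.0, 46.4 and 49.8 CPM in WT 1 to WT 5. The WT libraries fell into a high pair, WT 1 and WT 2, and a low trio, and the Het libraries lay mostly between them. The means were 52.2 ± 5.27 CPM in Het (SD, n = 6) and 55.3 ± 11.9 CPM in WT (SD, n = 5). The log2 fold change was -0.08 ± 0.13 (adjusted p = 0.790, edgeR). It was 0.16 without WT 1 and WT 2 and 0.011 without WT 1, so no direction can be given.

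The receptor genes differed in abundance. Per kilobase of annotated exon, Thra had 38.7 ± 7.28 CPM in Het (SD, n = 6) and 29.4 ± 4.07 CPM in WT (SD, n = 5), and Thrb had 7.05 ± 0.711 CPM in Het and 7.47 ± 1.61 CPM in WT. The lowest Thra value of any library, 24.0 CPM per kilobase, exceeded the highest Thrb value, 9.34 CPM per kilobase. Klf9, at 8.03 ± 1.33 CPM per kilobase in Het and 8.88 ± 1.41 CPM per kilobase in WT, overlapped Thrb in both groups. Below them came Dio2, at 2.59 ± 1.16 CPM per kilobase in Het and 1.16 ± 0.199 CPM per kilobase in WT. Hr followed at 0.856 ± 0.164 CPM per kilobase in Het and 0.984 ± 0.302 CPM per kilobase in WT. Dio2 and Hr overlapped in WT, where Dio2 had 0.861 to 1.35 and Hr 0.766 to 1.51 CPM per kilobase. In Het they did not, with Dio2 at 1.16 to 4.20 and Hr at 0.692 to 1.07 CPM per kilobase. Dio3 was last, at 0 in Het and 0.0218 CPM per kilobase in WT.

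Klf9 (ENSMUSG00000033863, chr19:23141226-23168134, plus strand) encodes a zinc-finger transcription factor induced by thyroid hormone and by glucocorticoids. It had 31.3 CPM in the lowest, 36.8 CPM in the median and 49.8 CPM in the highest Het library, against 44.6, 43.4, 40.8, 33.1 and 52.0 CPM in WT 1 to WT 5. The ranges overlapped over nearly their whole length. The means were 38.6 ± 6.40 CPM in Het (SD, n = 6) and 42.8 ± 6.80 CPM in WT (SD, n = 5), and the log2 fold change was -0.15 ± 0.13 (adjusted p = 0.595, edgeR). Klf9 did not pass the threshold in any of the 27 alternatives.

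Hr (ENSMUSG00000022096, chr14:70552212-70573548, plus strand) encodes hairless, a nuclear corepressor that binds thyroid hormone receptors in rat brain. It had 4.79 CPM in the lowest, 5.75 CPM in the median and 7.42 CPM in the highest Het library, against 5.30, 10.5, 6.52, 5.58 and 6.20 CPM in WT 1 to WT 5. WT 2 stood apart from the other 4 WT libraries, and 3 Het libraries were below all WT libraries. The means were 5.92 ± 1.14 CPM in Het (SD, n = 6) and 6.81 ± 2.09 CPM in WT (SD, n = 5). The log2 fold change was -0.20 ± 0.21 (adjusted p = 0.654, edgeR). It was 0.0012 without WT 2, 0.017 with the sex score, 0.037 in the Xist-positive libraries alone and 0.18 with the skeletal muscle score, so no direction can be given.

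The members did not move together from library to library. After the group means were taken off, Pearson's r of log2 CPM between pairs of the 5 tested members lay between -0.50 for Thra with Hr and 0.33 for Thra with Klf9, over 11 libraries. Dio2 with Klf9 gave 0.10 and Dio2 with Hr also 0.10. The genes most like Dio2 by the same measure were Zmat5 (r = 0.97), Bsg (r = 0.96) and Dnajc16 (r = 0.95), of which none passed the Het against WT threshold. For Thra they were Mbd6 (r = 0.95), Atp5g1 (r = 0.93) and Anapc10 (r = 0.93). Mbd6 alone of these passed the threshold, with a log2 fold change of 0.58 (adjusted p = 0.0366, edgeR), and its adjusted p was above 0.05 in 14 of the 27 alternatives, up to 0.623, and 0.514 with the sex score. These include leaving out any one of WT 1, WT 2, WT 3, Het 2, Het 3, Het 4, Het 5 and Het 6, between 0.0543 (WT 3) and 0.0872 (WT 2). For Thrb they were Tbc1d14 (r = 0.97), Xpnpep3 (r = 0.96) and Ntn4 (r = 0.96). For Klf9 they were Atp1a4 (r = 0.91), Gm13422 (r = 0.91) and Zc3h7b (r = 0.90), and for Hr Dpp9 (r = 0.89), Abi2 (r = 0.89) and Rab9b (r = 0.87). All these values share the same 11 libraries and their composition, each was picked as the highest over all genes compared, and they are given as a description.

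**Figure D4:**
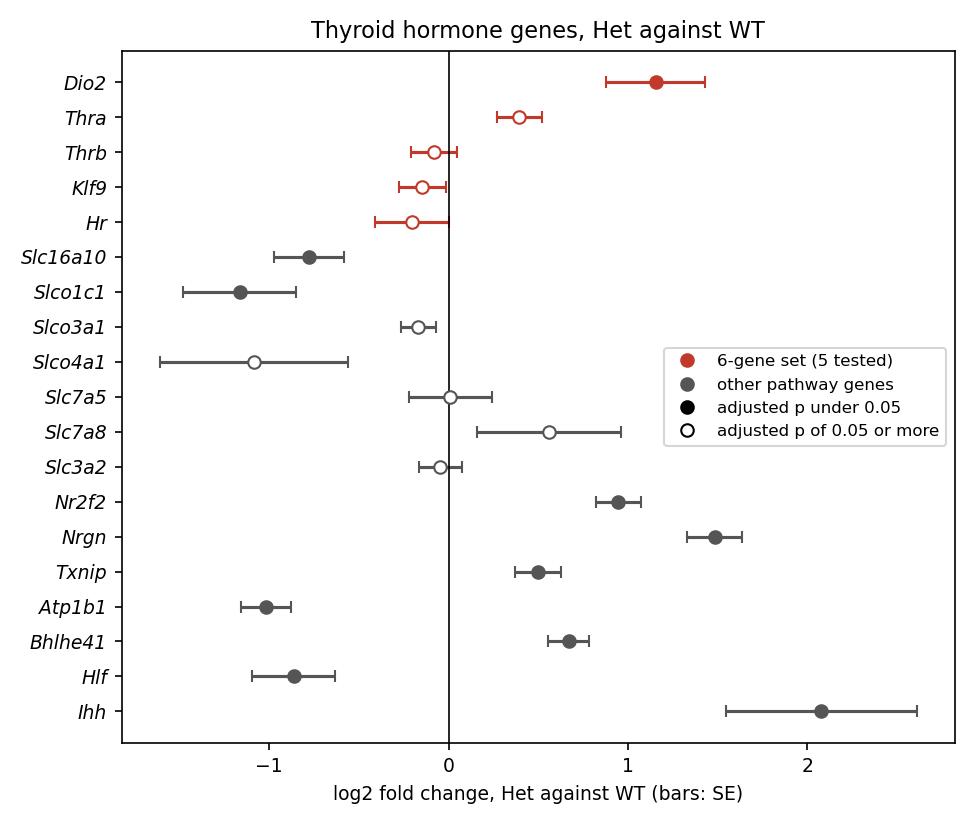
Log2 fold change of Het over WT with its SE for the 5 tested members (red), transporters and the other named pathway genes that passed the threshold (grey); filled points have an adjusted p under 0.05. Dio2 is the filled red point, at 1.15, and the transporters Slc16a10 and Slco1c1 are filled points below 0.

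Thyroid hormone enters cells through transporters, and 2 of the 8 tested transporter genes fell in Het while 0 rose in edgeR, with a median log2 fold change of -0.11 over the 8. DESeq2 called 2 of the 8 and limma voom 1. Slc16a10, which carries aromatic amino acids and iodothyronines, had 2.94 CPM in the lowest, 4.76 CPM in the median and 5.76 CPM in the highest Het library, against 7.88, 8.44, 6.88, 10.7 and 6.58 CPM in WT 1 to WT 5. All Het libraries were below all WT libraries. The share of all tested genes whose groups do not overlap is not given. Such separation, here and below, is therefore not read as unusual. The log2 fold change of Slc16a10 was -0.78 ± 0.20 (adjusted p = 0.0312, edgeR). Leaving out 1 library raised that p to 0.0532 (WT 1), 0.0700 (WT 2), 0.0719 (WT 4), 0.0621 (Het 2), 0.0606 (Het 4) or 0.0593 (Het 5), and over the 27 alternatives it was at most 0.511. Slco1c1, a thyroxine transporter known from brain capillaries, had 1.18 CPM in the lowest, 1.35 CPM in the median and 2.38 CPM in the highest Het library, against 1.99, 3.82, 2.62, 5.95 and 2.62 CPM in WT 1 to WT 5. Het 4 was the 1 Het library inside the WT range. Its log2 fold change was -1.16 ± 0.31 (adjusted p = 0.0433, edgeR). That p was above 0.05 without any one of WT 2, WT 3, WT 4, Het 1, Het 2, Het 3, Het 5 and Het 6, between 0.0559 (WT 3) and 0.115 (WT 4). It was 0.0650 with limma voom, 0.0619 and 0.0604 with limma trend on the deposited values, and 0.0531 without a filter, and 18 of the 27 alternatives ended the call. With the sex score the adjusted p was 0.394 for Slc16a10 and 0.291 for Slco1c1.

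Of the 15 tested genes for hormone binding, clearance and deiodinase upkeep 0 passed the threshold in edgeR, DESeq2 or limma voom, while 4 had an unadjusted p under 0.05 in edgeR. Their median log2 fold change was 0.12. Wsb1, part of the ubiquitin ligase that marks type 2 deiodinase for degradation, had 193 ± 33.1 CPM in Het (SD, n = 6) and 177 ± 27.3 CPM in WT (SD, n = 5). Txn1, a thioredoxin, had 112 ± 14.2 CPM in Het and 92.4 ± 23.0 CPM in WT. Dio1, the third deiodinase, had 0 counts in every library.

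Among 23 tested receptor partners and coregulators 1 rose and 0 fell, with a median log2 fold change of 0.041. Nr2f2 encodes COUP-TFII, an orphan nuclear receptor of veins and mesenchyme that can dimerise with retinoid X receptors. It had 198 CPM in the lowest, 236 CPM in the median and 318 CPM in the highest Het library, against 107, 121, 119, 153 and 136 CPM in WT 1 to WT 5. The groups did not overlap, and the log2 fold change was 0.95 ± 0.13 (adjusted p = 3.98e-04, edgeR). It passed in all 27 alternatives. The retinoid X receptor genes did not pass: Rxra had a log2 fold change of 0.30 ± 0.13, Rxrb of -0.17 ± 0.18 and Rxrg of -0.42 ± 0.51.

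Of 21 other tested genes known to respond to thyroid hormone in some tissue 2 rose and 1 fell, with a median log2 fold change of 0.010. Nrgn encodes neurogranin, a calmodulin-binding protein that responds to thyroid hormone in rat brain. It had 26.2 CPM in the lowest, 35.7 CPM in the median and 44.8 CPM in the highest Het library, against 11.1, 13.9, 12.3, 12.6 and 13.8 CPM in WT 1 to WT 5. The groups did not overlap, the log2 fold change was 1.48 ± 0.16 (adjusted p = 4.67e-05, edgeR), and it passed in all 27 alternatives. Txnip, the thioredoxin-interacting protein, had 62.4 CPM in the lowest and 101 CPM in the highest Het library, against 47.5 CPM in the lowest and 66.8 CPM in the highest WT library. Het 5 was the 1 Het library inside the WT range. The log2 fold change of Txnip was 0.50 ± 0.13 (adjusted p = 0.0341, edgeR), and the adjusted p was above 0.05 without any one of WT 1, WT 4, WT 5, Het 1, Het 2, Het 3 and Het 4, at most 0.0790 (WT 1). It was 0.171 with the sex score and at most 0.231 over the 27 alternatives. Atp1b1, a subunit of the sodium pump, had 13.2 CPM in the lowest, 16.8 CPM in the median and 22.5 CPM in the highest Het library, against 27.8, 38.3, 41.3, 31.5 and 35.7 CPM in WT 1 to WT 5. The groups did not overlap, and Atp1b1 fell by 1.02 on the log2 scale (SE 0.14, adjusted p = 4.91e-04, edgeR). Among the 27 alternatives 1 ended this call, the Xist-positive libraries alone, with an adjusted p of 0.0703. Thrsp, a lipogenic gene named for its response to thyroid hormone in rat liver, had 186 ± 93.5 CPM in Het (SD, n = 6) and 237 ± 126 CPM in WT (SD, n = 5), with an adjusted p of 0.726 in edgeR.

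Genes that feed into Dio2 and Dio3 mostly did not pass the threshold. Of 16 tested genes of the cyclic AMP and bile acid inputs to Dio2 0 passed in edgeR, DESeq2 or limma voom and 4 had an unadjusted p under 0.05 in edgeR, with a median log2 fold change of 0.12. Prkar1a, a regulatory subunit of protein kinase A, had 781 ± 67.1 CPM in Het (SD, n = 6) and 796 ± 54.1 CPM in WT (SD, n = 5). Foxo3, a transcription factor that induces Dio2 in muscle cells, had 433 ± 89.2 CPM in Het and 241 ± 130 CPM in WT (log2 fold change 0.85 ± 0.33, adjusted p = 0.178, edgeR). Of 19 tested hedgehog and hypoxia genes, which induce Dio3 in skin and heart, 1 rose and 0 fell, with a median of -0.16. Ihh, the Indian hedgehog ligand, had 1.03, 1.37, 1.98, 1.46, 3.25 and 3.10 CPM in Het 1 to Het 6, against 0.132, 0.201, 0.205, 0.808 and 1.12 CPM in WT 1 to WT 5. Het 1 was the 1 Het library inside the WT range, and the log2 fold change was 2.08 ± 0.53 (adjusted p = 0.0341, edgeR). That p was above 0.05 without any one of WT 1, WT 2, WT 3, Het 3, Het 5 and Het 6, between 0.0519 (Het 3) and 0.0892 (WT 3), and was 0.502 with the sex score and at most 0.686 over the 27 alternatives.

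Klf9 belongs to a family and also answers to glucocorticoids and the clock, and 0 genes of the family and 0 glucocorticoid genes passed the threshold in edgeR, DESeq2 or limma voom. For 13 other tested Klf genes, 3 with an unadjusted p under 0.05 in edgeR, the median log2 fold change was 0.055, and Klf13, the most abundant, had 1211 ± 36.0 CPM in Het (SD, n = 6) and 1219 ± 260 CPM in WT (SD, n = 5). Klf6 had 148 ± 45.5 CPM in Het and 138 ± 19.1 CPM in WT. For 18 tested glucocorticoid response genes, 3 with such a p, the median was 0.046. Dusp1, a phosphatase of MAP kinases, had 74.9 ± 30.4 CPM in Het and 63.4 ± 29.2 CPM in WT, and Errfi1, an inhibitor of the EGF receptor, had 49.7 ± 4.17 CPM in Het and 60.0 ± 10.6 CPM in WT. Of 19 tested clock genes 1 rose and 1 fell, with a median of -0.069. Bhlhe41, a transcriptional repressor of the clock, had 233 CPM in the lowest, 257 CPM in the median and 335 CPM in the highest Het library, against 127, 158, 180, 186 and 182 CPM in WT 1 to WT 5. The groups did not overlap (log2 fold change 0.67 ± 0.11, adjusted p = 0.00282, edgeR), and the adjusted p was 0.0882 with the sex score. It was at most 0.142 over the 27 alternatives, of which 2 ended the call. Hlf, a PAR-domain transcription factor, had 6.00 CPM in the lowest, 9.11 CPM in the median and 13.6 CPM in the highest Het library, against 24.7, 14.7, 12.1, 14.8 and 20.9 CPM in WT 1 to WT 5. Het 1 and Het 6 lay above the lowest WT library. The log2 fold change of Hlf was -0.86 ± 0.23 (adjusted p = 0.0421, edgeR), and that p was above 0.05 without any one of WT 1, WT 2, WT 5, Het 2, Het 3, Het 4 and Het 5, between 0.0596 (Het 3) and 0.108 (WT 1). It was 0.403 with the sex score and at most 0.473 over the 27 alternatives.

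Hairless binds histone deacetylases and the vitamin D receptor, and 0 of 8 tested partners and related demethylases passed the threshold in edgeR and 0 in limma voom, against 3 in DESeq2, while 3 had an unadjusted p under 0.05 in edgeR. Their median log2 fold change was -0.20. Hdac3, the deacetylase of the thyroid hormone receptor corepressor complex, had 86.7 CPM in the lowest, 96.8 CPM in the median and 101 CPM in the highest Het library, against 104, 111, 125, 124 and 109 CPM in WT 1 to WT 5. The groups did not overlap, but the log2 fold change of -0.26 ± 0.08 had an adjusted p of 0.0668 in edgeR. Hdac1 had 52.4 ± 4.32 CPM in Het (SD, n = 6) and 53.6 ± 7.55 CPM in WT (SD, n = 5). Over all these lists 9 of 160 tested genes passed the threshold, 5 higher and 4 lower in Het, a share near the 5.03% of all tested genes.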

How the data were processed

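The authors deposited raw counts, as whole numbers, for 48733 rows, 48709 of them mouse genes. A deposited signal table, named by the authors as TMM-scaled CPM, served for 1 kind of alternative test and for finding the members. Libraries were unstranded and read as single ends, per the labels' protocols. GRCm38, STAR 2.5.2a and the packages limma, edgeR and DESeq2 are listed, with no role, in the submitters' processing notes. For the counting program and gene models the entry is: not given in the sources used here. Every column of per-sample values matched a sample.

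Groups came from the labels. Genes were kept by filterByExpr (minimum count 10, minimum total 15) in edgeR 4.0.16 (R 4.3.3), scaled by TMM and tested, Het over WT without covariates, by the robust quasi-likelihood F test with Benjamini-Hochberg adjustment over 14757 genes and a threshold of 0.05. SE values come from the log2 fold change over the root of F. Common biological variation was 0.215 (coefficient). The test was checked on simulated counts. Coordinates, counted from 1, and exon lengths are from GENCODE M21, and promoter windows from RefSeq (GRCm38.p6).

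The members and lists were chosen with earlier results of these data known. Named were the members, up to 4 genes past the threshold per list or else the 2 most abundant, the 3 genes most like each member among those with a mean of at least 1 CPM (log2 CPM with a prior count of 0.5), and genes overlapping a member on the other strand. Outside this rule, Thrsp, the retinoid X receptor genes and marker genes were added once values were seen. The alternatives comprised RLE and upper-quartile scaling, DESeq2 1.42.0, limma 3.58.1 (voom on counts, and trend on the deposited signal with pseudocounts of 1 and 0.5), no filter or at least 1 CPM in 5 libraries, the replicate number as a block, a threshold of 0.1, and covariates for sex (Y-linked genes minus Xist), brown fat (without Dio2), skeletal muscle and the number in the column names. Each library was also left out, WT 1 and WT 2 were left out together, and libraries with at least 100 Xist counts were fitted alone.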

Additional observations from a re-analysis of the deposited data

Results flagged for a closer look

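Among 16 named genes, 31 groups of 5 or 6 libraries were checked for a library that lies far from the rest by Dixon's criterion, which chance meets in about 5 percent of groups, and 5 were met. Thra in Het 6 was 243 CPM, and the next Het library was 177 CPM. Hr in WT 2 was 10.5 CPM, and the next WT library was 6.52 CPM. Slco1c1 in Het 4 was 2.38 CPM, and the next Het library was 1.52 CPM. Bhlhe41 in Het 6 was 335 CPM, and the next Het library was 269 CPM. Mbd6 in Het 6 was 30.5 CPM, and the next Het library was 22.1 CPM.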

How the results depend on the processing

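Of all tested genes 742 passed the threshold, against 1295 with DESeq2, 1290 at a threshold of 0.1, 415 with the column-name number as a covariate, 123 with the sex score, 211 with the skeletal muscle score, 34 in Xist-positive libraries alone, 432 without WT 1 and WT 2, and 458 to 853 with 1 library left out. The count of members was 1, against 2 with DESeq2 and at 0.1, 0 without WT 1 and WT 2, with limma voom and with the column-name number, and 0 to 1 with 1 library left out. Other pathway genes numbered 9, against 3 with the sex score, 2 in Xist-positive libraries, 5 with the muscle score and without WT 1 and WT 2, and 5 to 9 with 1 library left out. Thrb turned positive without WT 1 and WT 2 (log2 fold change 0.16) and lay between -0.15 and 0.011 with 1 library left out. Hr was 0.017 with the sex score, 0.037 in Xist-positive libraries and 0.18 with the muscle score, and between -0.28 and 0.0012 with 1 library left out. Dio2, Thra and Klf9 kept their sign in all 27 alternatives. The cause of these changes was not tested, and fits with libraries left out also rest on fewer libraries. Same-numbered replicates did not deviate together (correlations of -0.20 to 0.064), so the numbers are not taken as pairs; with the replicate block 332 genes and 0 members passed. Depth limits Dio3, at 0 to 3 counts per library.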
